A study of Mus musculus with 9 samples.

Results

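The RNA levels of the β-catenin destruction complex were described across 9 mouse RNA-sequencing libraries. The members were 10 genes taken by their symbols from the 50600 genes of the deposited tables. They were chosen by name and not by their measured values, though with earlier results of these data known. They were the scaffolds Apc, Apc2, Axin1 and Amer1, the kinases Gsk3a, Gsk3b and Csnk1a1, the ubiquitin ligase adaptor Btrc, β-catenin itself (Ctnnb1) and its DNA-binding partner Tcf7l2. All 10 were present in the tables, and 9 passed the filter on low values, which asks for 1 TPM (a level corrected for gene length and library total) in at least 1 library.

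In the absence of a Wnt ligand, APC, AXIN and AMER1 hold β-catenin beside the kinases CK1α and GSK3, which phosphorylate its N-terminus. The F-box protein β-TrCP, encoded by Btrc and by Fbxw11, recognises the phosphorylated stretch, and β-catenin is ubiquitinated and degraded. Wnt ligands, or truncation of APC, stop this cycle, and β-catenin accumulates and binds TCF and LEF factors in the nucleus, which maintains intestinal crypts and starts most intestinal adenomas. Most of this control acts on proteins, which these libraries did not measure.

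Organoids of WT genotype from small intestine, of strain C57BL/6 per the labels, were kept for 24 h in organoid medium mixed with conditioned medium (6 libraries). T-cM is medium conditioned by tumoroids and WT-cM by WT organoids. The titles and the treatment field name opposite media for these 6 libraries, and the 2 groups of 3 libraries are named here by title, as T-cM-titled or WT-cM-titled organoids. Each direction between them turns round if the treatment field is right. The third group was 3 libraries of untreated tumoroids, epithelial cultures from intestinal tumours of Apc1638N/+ mice of mixed strain, whose germline carries 1 Apc allele that ends the protein early. Per the study's methods, tumoroids came from older mice and were grown without R-spondin, a Wnt agonist, whereas the labels list R-spondin for all cultures. The methods also give a mixed background for all mice, whereas the labels give C57BL/6 for the organoids alone. Genotype, any difference of strain, age, medium and tumour origin cannot be told apart in any comparison with tumoroids. All groups had epithelial markers (Epcam, Cdh1, Krt8, Krt18 and Vil1 summed to 7427 to 11488 TPM, with Krt18 higher and Krt8 and Vil1 lower in tumoroids), and the 6 fibroblast markers summed to at most 0.33 TPM. Leucocyte markers summed to 0.09 to 1.92 TPM in organoids and 1.85 to 15.8 TPM in tumoroids (1 of the 4 at 0 in every library), mostly from the macrophage receptor gene Csf1r, which had 60, 550 and 131 counts in tumoroids and 3 to 62 in organoids (log2 fold change 2.66, adjusted p = 0.017), and whose part in the results below was not tested. Endothelial markers summed to at most 0.44 and 1.68 TPM, and neuronal and glial markers to at most 2.31 and 3.31 TPM.

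Library totals ran from 16541635 to 25170966 counts. Levels below are in CPM (counts scaled by library size) after TMM normalisation, which scales each library so that most genes keep their level, and a floor of 3 counts was worth 0.103 to 0.204 CPM (counting error only). Tests are edgeR's quasi-likelihood F tests with Benjamini-Hochberg adjustment over 16208 genes, and passing means an adjusted p under 0.05. Per the series' design, organoids came from 3 mice and tumoroids from 3 mice. The organoid libraries therefore form 3 pairs by replicate number, and comparisons of tumoroids with all 6 treat the 2 libraries of a pair as separate.

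The stretch of Ctnnb1 on which the complex acts is shown because it ties the members together. It lies in exon 3 of Ctnnb1 (transcript ENSMUST00000007130.14, plus strand, chr9:120950602-120950643, GRCm38) and covers codons 32 to 45 of 781. Capitals mark codons 33, 37 and 41, which encode residues phosphorylated by GSK3, and codon 45, which encodes the priming residue of CK1α.
Ctnnb1 codons 32 to 45: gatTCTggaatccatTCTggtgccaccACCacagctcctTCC

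Fold changes between tumoroids and organoids moved with the scaling of the libraries. TMM factors were 0.890 to 0.962 in organoids and 1.19 to 1.21 in tumoroids. The median log2 fold change of all tested genes, tumoroids over organoids, was 0.16 with TMM, 0.11 with RLE factors, 0.27 with upper-quartile factors, 0.56 with library totals alone and 0.52 on the log2(TPM + 1) scale. Of the genes that passed, 58.7% were higher in tumoroids with TMM, 77.4% with library totals and 79.8% with TPM. Each member's change is therefore also given relative to the median of all genes and to the mean of the 9 measured members in the same library, measures chosen after the values were seen.

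Of the 9 members tested in tumoroids against all organoids, 2 were higher (Btrc and Amer1), 2 were lower (Gsk3a and Tcf7l2) and 5 did not pass. Across all 16208 genes 29.6% were higher and 20.8% lower (50.4% in either direction), so the members' share was no larger than that of genes in general. The median log2 fold change of the members was 0.10, against 0.16 for all genes. None of the 4 that passed had a log2 fold change above 1 in size, whereas 33.1% of all genes passed with such a change (21% higher and 12.1% lower). Tumoroids and organoids did not overlap for 4 of the 9, with Btrc and Csnk1a1 higher and Gsk3a and Tcf7l2 lower, against 25.6% of all genes higher and 20.2% lower without overlap. With library totals in place of TMM the split was 5 higher (Axin1, Amer1, Csnk1a1, Btrc and Ctnnb1) and 0 lower. At that scaling 7297 of all 16208 genes were higher and 2132 lower.

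**Figure D1:**
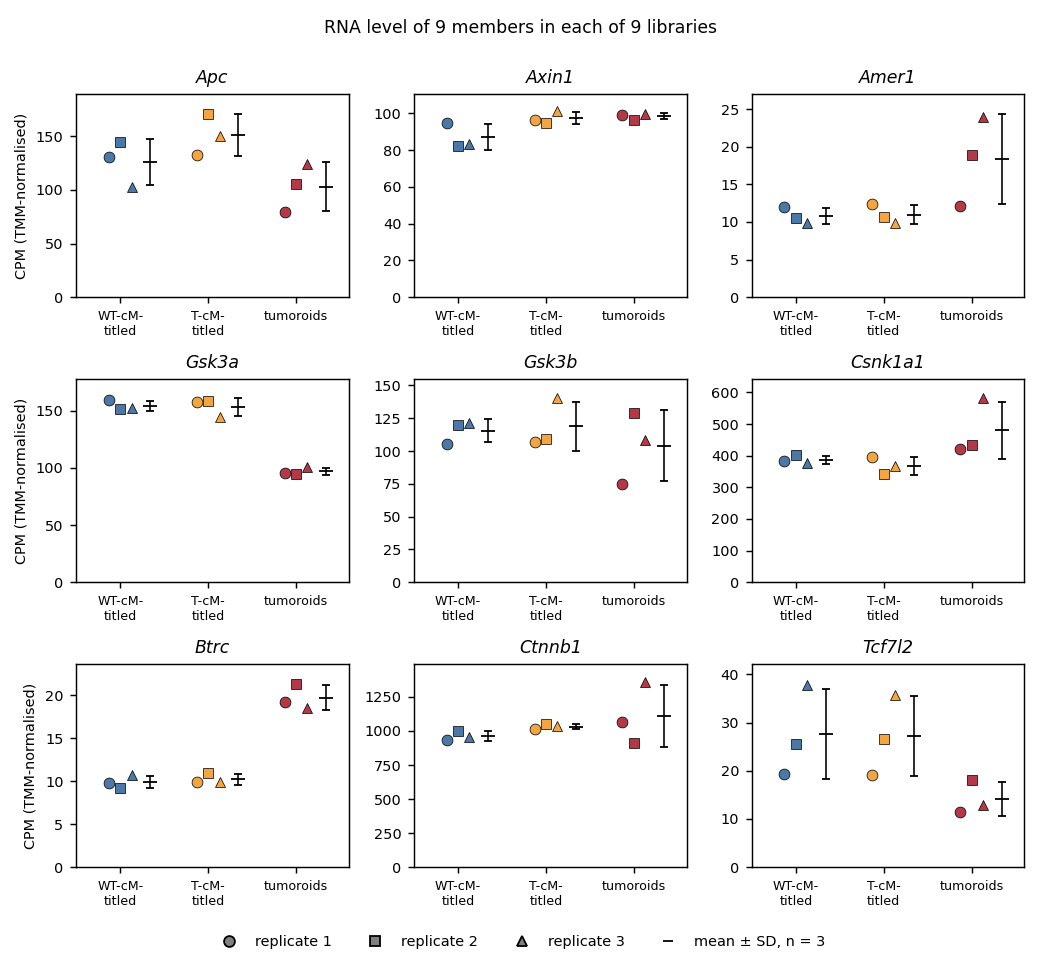
TMM-normalised CPM of 9 members in each library, by group (3 libraries each; marker shape is the replicate number), with mean ± SD beside the points. Btrc lay between 18.5 and 21.3 CPM in tumoroids, above all organoid libraries, and Gsk3a between 94.8 and 101 CPM, below all of them.

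Apc, the scaffold whose gene is mutated in the tumoroids (chr18:34220924-34322552, plus strand, GRCm38), was read in all libraries. T-cM-titled organoids had 132, 171 and 150 CPM (replicates 1, 2 and 3), WT-cM-titled organoids 131, 145 and 103 CPM, and tumoroids 79.4, 105 and 124 CPM. Tumoroid 1 was below every organoid library, and tumoroids 2 and 3 lay within the organoid range. The log2 fold change in tumoroids was -0.42 (SE 0.17, 95% interval -0.81 to -0.03, adjusted p = 0.070), which did not pass. It passed in 5 of 23 alternatives, among them RLE factors and leaving out tumoroid 3 (-0.59). Without tumoroid 1 it was -0.26 (adjusted p = 0.23), and with TPM it was 0.086. A chain-terminating allele still gives reads over the gene, so this count checks nothing about the genotype, and loss of the second allele cannot be read from it. Apc2, the paralogue best known from neurons (chr10:80295977-80318263, plus strand), had 0 to 3 counts in every library, at or under the floor, and was not tested.

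Axin1, the scaffold that limits assembly of the complex (chr17:26138688-26195811, plus strand), had nearly equal levels in the 3 tumoroids. They had 99.1, 96.5 and 99.7 CPM and organoids 82.1 to 101 CPM. The log2 fold change was 0.10 (SE 0.10, 95% interval -0.12 to 0.32, adjusted p = 0.44), and it was 0.49 and passed with library totals.

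Amer1, which brings the complex to the plasma membrane (chrX:95420318-95444872, minus strand), was higher in tumoroids. T-cM-titled organoids had 12.3, 10.7 and 9.86 CPM, WT-cM-titled organoids 11.9, 10.6 and 9.92 CPM, and tumoroids 12.1, 18.9 and 24.0 CPM. Tumoroid 1 lay within the organoid range, and tumoroids 2 and 3 above it. Its log2 fold change was 0.75 (SE 0.21, adjusted p = 0.015). It was 0.50 and did not pass without tumoroid 3 (adjusted p = 0.085), nor with the organoid libraries of a pair summed (0.73, adjusted p = 0.081). The gene is X-linked, and the X-inactivation RNA Xist had 4387 or more counts in organoid pair 3 and in tumoroids 1 and 2 but at most 3 counts elsewhere. Amer1 was lowest in organoid pair 3 and highest in tumoroid 3, and the part of donor sex in its values was not tested.

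Gsk3a, which encodes GSK3α (chr7:25228258-25237851, minus strand), was lower in tumoroids. T-cM-titled organoids had 158, 158 and 145 CPM, WT-cM-titled organoids 159, 151 and 153 CPM, and tumoroids 95.8, 94.8 and 101 CPM. The groups did not overlap, and the log2 fold change was -0.67 (SE 0.10, 95% interval -0.89 to -0.44, adjusted p = 4.6e-04). With library totals it was -0.27 (adjusted p = 0.054) and with TPM -0.14 (adjusted p = 0.31), so the call rests on the scaling. Relative to the median of all genes it was -0.83 with TMM and -0.66 on the log2(TPM + 1) scale.

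Gsk3b, which encodes the other isoform, GSK3β (chr16:38089001-38246084, plus strand), did not pass. Tumoroids had 74.9, 129 and 109 CPM and organoids 106 to 140 CPM. Only tumoroid 1 was below the organoid range. Its log2 fold change was -0.17 (SE 0.18, 95% interval -0.56 to 0.23, adjusted p = 0.46), and it was 0.020 without tumoroid 1, 0.23 with library totals and 0.32 with TPM.

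Csnk1a1, which encodes the priming kinase CK1α (chr18:61555274-61590061, plus strand), had 422, 435 and 583 CPM in tumoroids and 341 to 402 CPM in organoids. All 3 tumoroids were above all organoids, but the log2 fold change of 0.35 (SE 0.14, 95% interval 0.03 to 0.66, adjusted p = 0.066) did not pass. It passed in 4 of 23 alternatives, library totals and TPM among them, and was 0.17 without tumoroid 3 (adjusted p = 0.34).

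Btrc, which encodes the adaptor that reads the phosphorylated stretch printed above (chr19:45363734-45530013, plus strand), was higher in tumoroids. T-cM-titled organoids had 9.89, 11.0 and 9.86 CPM, WT-cM-titled organoids 9.78, 9.24 and 10.7 CPM, and tumoroids 19.3, 21.3 and 18.5 CPM. The groups did not overlap, and the mean was 1.95-fold that of organoids. The log2 fold change was 0.97 (SE 0.14, 95% interval 0.65 to 1.29, adjusted p = 4.0e-04). The adjusted p was under 0.05 in 23 of 23 alternatives, with log2 fold changes of 0.89 to 1.36. These include the call rule that adds a log2 fold change above 1, whose p is that of the main fit. Under that rule Btrc did not pass, and of the 9 members it alone passed in every other alternative.

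Ctnnb1, the substrate of the complex and also a component of adherens junctions (chr9:120929216-120960507, plus strand), had 1065, 910 and 1360 CPM in tumoroids. T-cM-titled organoids had 1014, 1050 and 1034 CPM and WT-cM-titled organoids 933, 1001 and 954 CPM. Tumoroid 2 was the lowest of all 9 libraries and tumoroid 3 the highest. Its log2 fold change was 0.16 (SE 0.16, 95% interval -0.19 to 0.51, adjusted p = 0.43), and without tumoroid 3 it was -0.030. It passed with library totals (0.55, adjusted p = 0.0098) and with TPM (0.66, adjusted p = 0.0031).

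Tcf7l2, the TCF factor that is most closely tied to crypt maintenance (chr19:55741820-55933654, plus strand), was lower in tumoroids. T-cM-titled organoids had 19.2, 26.5 and 35.7 CPM, WT-cM-titled organoids 19.4, 25.5 and 37.7 CPM, and tumoroids 11.5, 18.1 and 12.9 CPM. The groups did not overlap, but tumoroid 2 lay just below the lowest organoid library. The log2 fold change was -0.95 (SE 0.28, 95% interval -1.58 to -0.33, adjusted p = 0.017). It did not pass without tumoroid 1 (-0.82, adjusted p = 0.067), with library totals (-0.54) or with TPM (-0.35). Enterocyte markers, which summed to 21082 to 50384 TPM in organoids, summed to 31.4 to 314 TPM in tumoroids, and 5 of 5 passed as lower. Of the goblet markers 3 of 3 were lower in tumoroids, and of the Paneth markers 2 of 3 were lower and 1 higher. Enteroendocrine markers had 1 higher and 1 lower of 4, tuft markers 1 higher of 3, crypt stem markers 3 higher of 4, and proliferation markers 0 passing of 4. In a bulk library fewer cells of a type and less RNA per cell cannot be told apart, and the part of cell composition in the differences of all members was not tested.

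**Figure D2:**
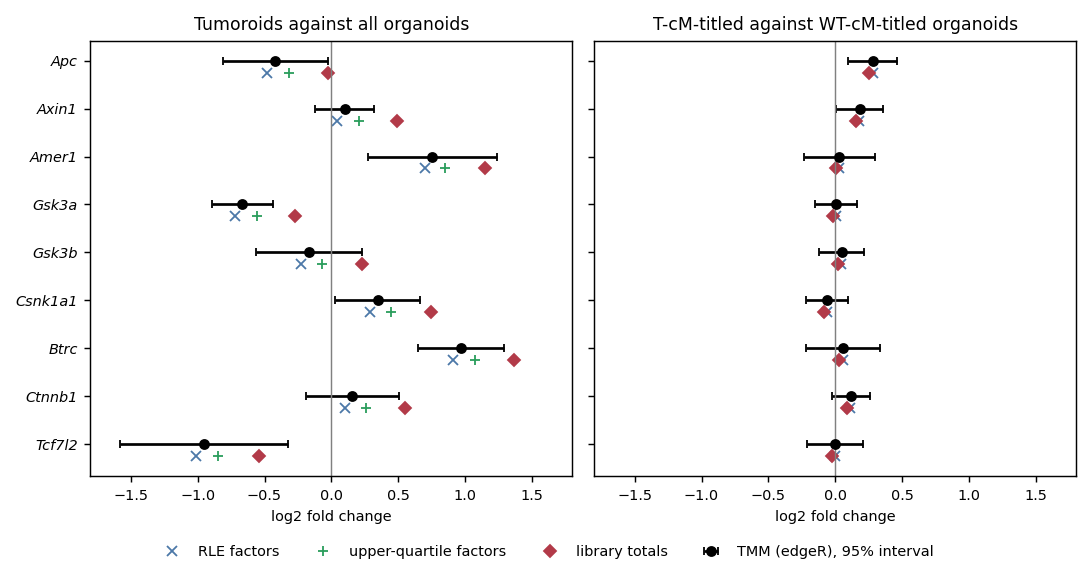
Log2 fold change of 9 members, with tumoroids over all organoids on the left and T-cM-titled over WT-cM-titled organoids on the right. Black points and bars are TMM estimates with 95% intervals, and coloured marks give the same contrast with RLE factors, upper-quartile factors and library totals, which move all members of the left panel together (Gsk3a from -0.67 with TMM to -0.27 with library totals) and hardly move those of the right.

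Within a library, members can be compared with each other whatever the scaling between libraries. Relative to the mean log2 TPM of the 9 measured members, tumoroids differed from organoids without overlap for 5 members. Btrc was higher by 0.96, Amer1 by 0.70 and Csnk1a1 by 0.33, whereas Gsk3a was -0.67 and Tcf7l2 -0.93. The share of all genes without overlap on this measure was not computed. In TMM-normalised CPM it was 25.6% higher and 20.2% lower. Relative to the median change of all genes, a measure that no rescaling of whole libraries can move by much, Btrc was at 0.80 with TMM and 0.77 on the log2(TPM + 1) scale, Amer1 at 0.59 and 0.50, and Tcf7l2 at -1.12 and -0.87. The members that did not pass with TMM were at -0.585 and -0.43 (Apc), -0.33 and -0.20 (Gsk3b), 0.18 and 0.33 (Csnk1a1), -0.068 and 0.095 (Axin1) and -0.0081 and 0.14 (Ctnnb1). Relative to the mean of the 9 members, the other 4 overlapped, with differences of -0.43 for Apc, -0.20 for Gsk3b, 0.10 for Axin1 and 0.14 for Ctnnb1. The 5 members without overlap include the 4 that passed the test with TMM, which used the same libraries. The differences are descriptions and carry no test.

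**Figure D3:**
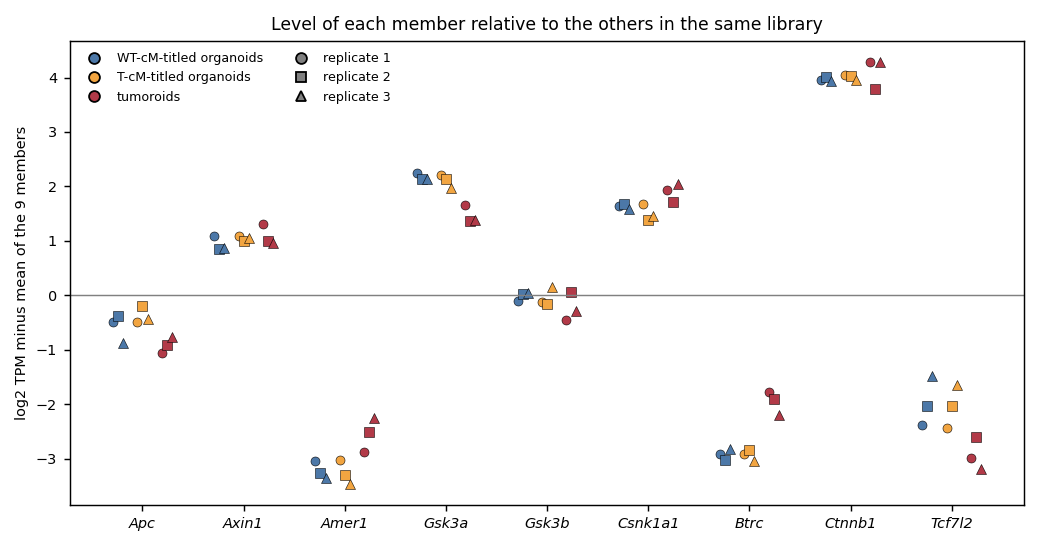
Log2 TPM of each member minus the mean of the 9 measured members in the same library (vertical axis), by gene, with colours for the groups and marker shape for the replicate number. Btrc and Amer1 lie higher in all 3 tumoroids than in any organoid library, and Gsk3a and Tcf7l2 lower.

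By length-corrected level, Ctnnb1 was the most abundant member in both kinds of culture, with 472 ± 29.6 TPM in organoids (SD, n = 6) and 754 ± 159 TPM in tumoroids (SD, n = 3). In organoids Gsk3a (131 TPM), Csnk1a1 (88.3 TPM), Axin1 (59.2 TPM), Gsk3b (29.2 TPM), Apc (21.6 TPM) and Tcf7l2 (7.59 TPM) followed, and none of these overlapped its neighbour in the order. Btrc (3.91 TPM) and Amer1 (3.16 TPM) came last of the 9 and overlapped. In tumoroids Csnk1a1 (162 TPM) stood above Gsk3a (118 TPM) and Btrc (11.0 TPM) above Tcf7l2 (5.77 TPM), the reverse of organoids. The tumoroid ranges of Gsk3b and Apc overlapped, as did those of Btrc and Amer1 and of Amer1 and Tcf7l2.

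Several members have a paralogue with the same role, and the ratio within each library is again free of the scaling between libraries. Ratios were compared between 3 tumoroids and 3 organoid pairs with exact two-sided permutation tests, which cannot go below p = 0.1 at this size, over 5 pairs of genes. Axin2, the Wnt-induced counterpart of Axin1, was at 0.280 of the Axin1 level in organoids and 2.16 times it in tumoroids (log2 difference 2.95, exact permutation p = 0.1, adjusted p = 0.167). The ratio was above 1 in 3 of 3 tumoroids and below 1 in 6 of 6 organoid libraries. Tcf7, a TCF factor that is itself a Wnt target, was at 0.952 of the Tcf7l2 level in organoids and 6.02 times it in tumoroids (log2 difference 2.66, exact permutation p = 0.1, adjusted p = 0.167). Fbxw11, the second β-TrCP gene, exceeded Btrc 13.4-fold in organoids and 7.54-fold in tumoroids (log2 difference -0.83, exact permutation p = 0.1, adjusted p = 0.167). Most β-TrCP RNA was therefore that of Fbxw11 in both kinds of culture, and Fbxw11 itself had a log2 fold change of 0.04 (adjusted p = 0.84). Gsk3a exceeded Gsk3b 4.42-fold in organoids and 3.21-fold in tumoroids, and these ratios overlapped (exact permutation p = 0.2, adjusted p = 0.25). The ratio of Apc2 to Apc is set by the pseudocount, as Apc2 was at the floor (log2 difference -0.04, exact permutation p = 0.9).

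**Figure D4:**
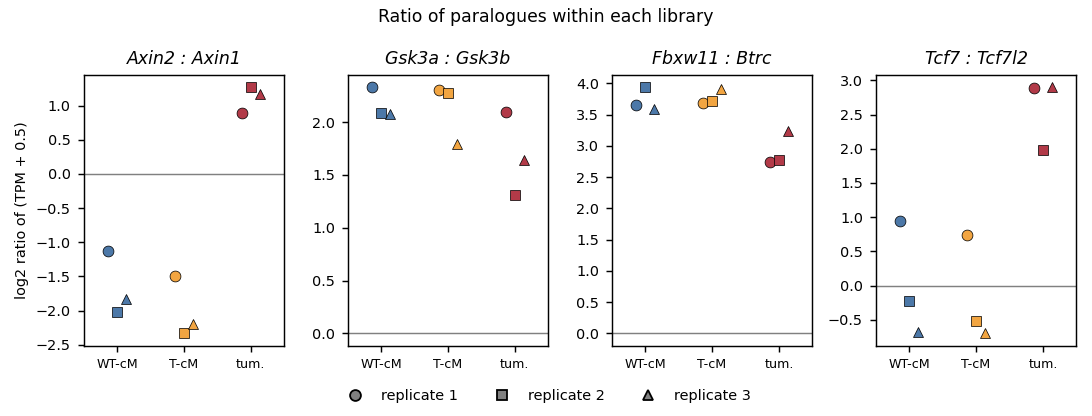
Log2 ratio of (TPM + 0.5) between paralogues in each library, by group (3 libraries each; marker shape is the replicate number; the grey line is a ratio of 1). The ratio of Axin2 to Axin1 is above 0 on the log2 scale in the 3 tumoroids and below it in the 6 organoid libraries.

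Between the organoid groups, 1 of 9 members passed. In this fit, with the replicate number as a block, 10.1% of all genes passed, 5.03% upwards and 5.05% downwards. With a log2 fold change above 1 in addition 0 members passed, and of all genes 1.1% did (0.673% upwards and 0.432% downwards). Ctnnb1 was the only member whose organoid groups did not overlap, against 5.12% of all genes higher and 5.28% lower without overlap, and it did not pass (0.11, SE 0.07, adjusted p = 0.36). Apc was the member that passed, higher in T-cM-titled organoids by 0.28 on the log2 scale (SE 0.09, 95% interval 0.10 to 0.46, adjusted p = 0.042). It was higher in 3 of 3 pairs, by 0.02, 0.24 and 0.55. Markers of cell types also moved between these groups, with 2 of 4 crypt stem markers lower in T-cM-titled organoids (Ascl2 -0.66, Smoc2 -0.61), 2 of 4 proliferation markers lower (Mki67 -0.30, Top2a -0.37), 2 of 4 enteroendocrine and 1 of 3 Paneth markers lower, and 1 of 5 enterocyte markers higher and 2 lower, and their part in the Apc difference was not tested. That difference did not pass without pair 2 (adjusted p = 0.56) or without pair 3 (0.13, adjusted p = 0.66). Nor did it pass without the block (adjusted p = 0.93) or with limma voom (adjusted p = 0.16). It kept an adjusted p under 0.05 in 5 of 14 alternatives. Among these is the rule that adds a log2 fold change above 1, whose p is that of the main fit. The log2 differences of the other 8 were between -0.06 and 0.18, the largest that of Axin1 (0.18, SE 0.08, 95% interval 0.01 to 0.35, adjusted p = 0.20), and the 95% intervals of all 8 lay between a lowest bound of -0.23 (Amer1) and a highest of 0.35 (Axin1). For Btrc the interval was -0.22 to 0.33, for Gsk3a -0.15 to 0.16 and for Tcf7l2 -0.21 to 0.21, so changes of the size estimated with TMM in tumoroids lay outside all 3 intervals.

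For some members the organoid pairs differed more than the media did. Tcf7l2 spanned 1.90-fold between pair 1, the lowest, and pair 3, the highest, whereas the largest difference within a pair was 1.06-fold. Amer1 spanned 1.23-fold between pairs in the opposite order, with at most 1.03-fold within a pair. For Gsk3b the span between pairs was 1.23-fold and the largest difference within a pair 1.16-fold, whereas for Apc the difference within pair 3 (1.46-fold) exceeded the span between pairs (1.27-fold). Axin2 spanned 2.01-fold and was highest in pair 1. The crypt stem markers Lgr5, Olfm4, Ascl2 and Smoc2 summed to 221 and 344 TPM in pair 1 and to 42.3 to 62.6 TPM in the others, and enterocyte markers were lowest in pair 1. Whether these cell markers account for the spread of Tcf7l2 and Amer1 was not tested.

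**Figure D5:**
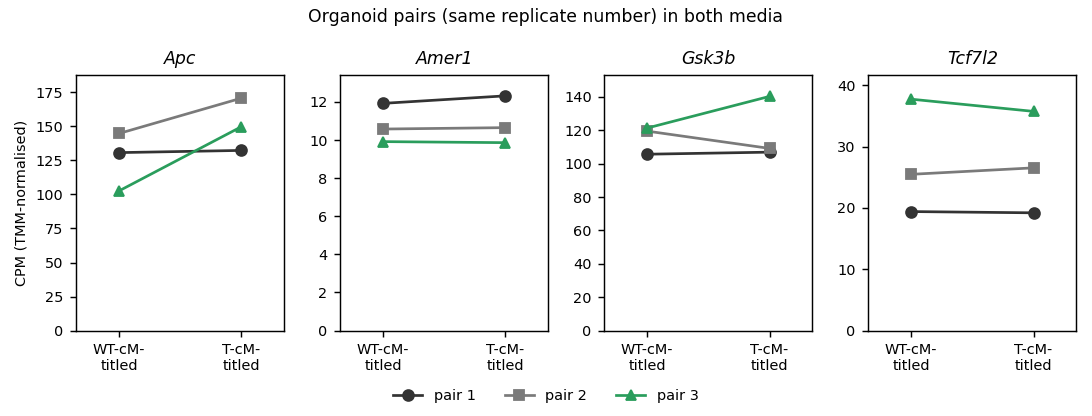
TMM-normalised CPM of 4 members in the organoid libraries, with a line joining the 2 libraries of the same replicate number. Tcf7l2 lies at 19.2 to 19.4 CPM in pair 1 and 35.7 to 37.7 CPM in pair 3 with nearly level lines, whereas Apc is 103 and 150 CPM in pair 3.

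The rest of the pathway was counted from lists of known roles, chosen with earlier results of these data known. All 8 readouts of β-catenin activity (Axin2, Nkd1, Notum, Lgr5, Rnf43, Znrf3, Sp5 and Apcdd1) were higher in tumoroids, beside 29.6% of all genes. Their median log2 fold change was 2.97 against 0.16 for all genes. All 8 were higher in tumoroids without overlap, against 25.6% of all genes. Axin2 rose from 26.2 to 61.8 CPM in organoids to 264, 337 and 323 CPM in tumoroids, a log2 fold change of 3.02 (SE 0.26, adjusted p = 1.6e-05). Rnf43, a ligase that removes Wnt receptors, rose from 54.6 ± 4.89 CPM (SD, n = 6) to 328 ± 71.5 CPM (SD, n = 3). Lgr5, the stem-cell receptor for R-spondin, rose from 0.824 ± 0.574 to 71.6 ± 31.8 CPM. Between the organoid groups 1 of the 8 passed, beside 10.1% of all genes. It was Sp5, a target transcription factor, which was higher in T-cM-titled organoids in 3 of 3 pairs by 0.95 (adjusted p = 0.0010). Sp5 did not pass with TPM, without the block, or without pair 2 or pair 3. The other 7 readouts did not pass, and all had log2 differences below 0, from -0.01 (Rnf43) to -1.94 (Notum, at the low counts of organoids), so that the list's median was -0.15.

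Of the 8 tested partners and paralogues of complex members, 3 were higher in tumoroids (Axin2, Csnk1e and Amer2), 1 was lower (Csnk1g3, a call lost with TPM) and 4 did not pass, so that 4 of 8 passed, beside 50.4% of all genes. Csnk1e, the CK1ε kinase that also acts on Dishevelled, rose from 14.1 to 20.5 CPM in organoids to 76.8, 96.3 and 115 CPM in tumoroids (adjusted p = 4.3e-06). Amer2, a paralogue of Amer1, had 0 to 2 counts in organoids and 8, 8 and 68 counts in tumoroids, and Amer3 had 0 counts in every library. Of the core of the ligase that carries β-TrCP, Skp1a rose (log2 fold change 0.72, adjusted p = 8.5e-04), and Cul1 and Rbx1 did not pass (1 of 3, beside 29.6% of all genes higher). With library totals or TPM all 3 were higher, as were 7297 and 7675 of all 16208 genes.

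Of 9 subunits of PP2A, the phosphatase that opposes the kinases of the complex, 0 were higher and 3 lower in tumoroids, against 29.6% and 20.8% of all genes. The 3 were among 5 regulatory B56 subunits, of which Ppp2r5a (-0.09, adjusted p = 0.50) and Ppp2r5e (0.36, adjusted p = 0.055) did not pass. Ppp2r5d had a log2 fold change of -1.05 (adjusted p = 2.8e-04) and Ppp2r5b of -0.95 (adjusted p = 0.0010), and both passed under each scaling tried. Ppp2r5c (-0.72, adjusted p = 0.0082) was lost with library totals and with TPM. The subunits Ppp2r5b (0.42, adjusted p = 0.0012) and Ppp2r5d (0.28, adjusted p = 0.032) were higher in T-cM-titled than in WT-cM-titled organoids, in 3 of 3 pairs each. In that comparison Ppp2r5b passed in 10 of 13 alternatives (not with TPM, without the block or without pair 2) and Ppp2r5d in 4 of 13. With library totals the PP2A list held 5 higher and 2 lower in tumoroids, against 7297 higher and 2132 lower of all 16208 genes.

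Of 10 upstream regulators, 3 were higher in tumoroids and 1 was lower, beside 29.6% and 20.8% of all genes. Those that rose were the Wnt co-receptor Lrp5 (0.79, adjusted p = 0.0014), the Dishevelled gene Dvl2 (0.83, adjusted p = 0.0012) and Tnks2 (0.60, adjusted p = 0.0042), a tankyrase that marks AXIN for degradation. Frat2, which encodes a GSK3-binding protein, fell by 0.80 (adjusted p = 0.0042), a call lost with library totals and with TPM. Dvl2 was also higher in T-cM-titled organoids (0.43, adjusted p = 0.024), a call kept in 6 of 13 alternatives and lost with voom, DESeq2, the newer edgeR form, TPM and no block, and without pair 2 or pair 3.

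Of 17 tested nuclear partners of β-catenin, 7 were higher and 4 lower, beside 29.6% and 20.8% of all genes. Among the DNA-binding factors, Tcf7 rose from 7.81 ± 2.46 to 27.3 ± 4.55 CPM (log2 fold change 1.81, adjusted p = 2.9e-04), the opposite direction to Tcf7l2. Lef1 had 0 to 2 counts in organoids and 165, 118 and 791 counts in tumoroids, and Tcf7l1 had 0 to 2 counts in organoids and 45, 51 and 111 in tumoroids. The coactivators Bcl9 (1.07), Bcl9l (1.41) and Pygo2 (0.57) also rose, as did the corepressor Tle3 (2.08). The corepressors Tle1 (86.8 to 43.2 CPM on average) and Tle4 (log2 fold change -1.08) fell, and Aes (-0.75) was also lower. So was Ctnnbip1 (-1.55, adjusted p = 3.5e-04), which encodes an inhibitor that keeps β-catenin from TCF factors. Tle4 was lost with TPM and Aes also with library totals. With library totals the nuclear list held 10 higher and 3 lower and the upstream list 5 and 0. The list of partners and paralogues then held 7 and 1. At that scaling 7297 of all 16208 genes were higher and 2132 lower. Of the 4 junction partners 3 were higher with library totals and 4 with TPM, where 7297 and 7675 of all 16208 genes were higher. With TMM 1 of the 4 passed, beside 50.4% of all genes. It was Ctnnd1, p120-catenin (0.50, adjusted p = 0.013), a call lost without tumoroid 3 and with the organoid pairs summed, and Cdh1, E-cadherin, had a log2 fold change of 0.06 (adjusted p = 0.76).

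Over the 9 libraries, the genes whose log2 CPM was most like that of Apc were 9130019O22Rik (Pearson r = 0.972), Itch (r = 0.971), which encodes a ubiquitin ligase, Zfp944 (r = 0.970), Tapt1 (r = 0.964) and Fam91a1 (r = 0.963). These were the top 5 of all tested genes and share libraries and scaling with Apc, so the values only describe likeness.

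The promoters of Gsk3a, Gsk3b and Tcf7l2 are shown because Gsk3a and Tcf7l2 were the members that fell, and Gsk3b is the isoform that did not pass. Each is the 250 bases before a start site (RefSeq, GRCm38.p6), and RefSeq's table gave such sequence for 5 of the 10 members, Gsk3a, Gsk3b, Tcf7l2, Ctnnb1 and Apc2. Capitals mark matches on either strand to the word that TCF and LEF factors bind, taken as AACAAAG and as ATCAAAG, with TACAAAG and TTCAAAG also counted. At least 1 of these words was in 14.8% of 32851 promoters of the same length. The Gsk3a promoter (chr7:25237852-25238101, minus strand) held 1 match, beginning at -158 from the start site. The Gsk3b promoter (chr16:38088751-38089000, plus strand) held 0. Tcf7l2 has 2 listed starts, of which the first held 0, and the one inside the gene (chr19:55895071-55895320, plus strand) held 1 match, at -14, on the opposite strand. Of 10 listed starts of the 5 genes 3 held a match, the other being at -21 from 1 of the 4 Apc2 starts, and neither Ctnnb1 start held one. A match is a description of these letters and not of binding.
Gsk3a: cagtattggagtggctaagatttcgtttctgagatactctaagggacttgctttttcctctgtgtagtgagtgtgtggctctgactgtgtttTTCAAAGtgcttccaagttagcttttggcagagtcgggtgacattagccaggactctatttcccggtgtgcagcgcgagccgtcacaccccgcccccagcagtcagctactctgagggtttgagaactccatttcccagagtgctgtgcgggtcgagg
Gsk3b: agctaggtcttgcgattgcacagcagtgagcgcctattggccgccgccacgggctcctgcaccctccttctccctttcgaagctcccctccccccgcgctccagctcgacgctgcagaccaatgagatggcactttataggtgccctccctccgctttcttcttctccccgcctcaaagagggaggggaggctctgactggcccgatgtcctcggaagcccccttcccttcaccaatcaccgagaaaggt
Tcf7l2, start inside the gene: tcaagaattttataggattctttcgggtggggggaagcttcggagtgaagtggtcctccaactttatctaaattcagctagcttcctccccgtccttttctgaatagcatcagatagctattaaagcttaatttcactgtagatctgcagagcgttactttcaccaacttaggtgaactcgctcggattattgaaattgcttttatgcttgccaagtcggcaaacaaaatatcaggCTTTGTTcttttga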

How the data were processed

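RNA from 9 mouse libraries was sequenced after polyA selection with a stranded kit. The authors aligned the reads to mm10 with STAR and Gencode annotation; the counter and its strand setting are not given in the sources used here. They deposited raw counts per gene without normalisation, and TPM, which the authors scaled by gene length to the same total per library. Groups and replicate numbers came from the titles.

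Counts were normalised by TMM and tested with edgeR 4.0.16 (quasi-likelihood, the form before edgeR 4) in R 4.3.3, on genes with at least 1 TPM in at least 1 library. Tumoroids were compared with the mean of both organoid groups over 9 libraries, and the organoid groups over 6 libraries blocked by replicate number. The filter, TMM and model terms follow the study, which tested with limma voom and took WT-cM organoids as the reference; both are alternatives here. The design gives 3 mice for the organoids, and deviations of same-numbered organoid libraries correlated at r = 0.546, 0.338 and 0.547. Ratios used TPM with a pseudocount of 0.5. Alternatives were limma 3.58.1 voom, DESeq2 1.42.0, edgeR 4's own form, other scalings and filters, limma on log2(TPM + 1), a fold threshold, each control group alone, summed pairs, the block, and leaving out libraries. Scripts were tested on simulated data with 100 genes planted at each size of change. In tumoroids against organoids 43% of 2-fold and 89% of 4-fold changes were recovered. Between the organoid groups it was 46% and 92%. A result that did not pass therefore does not show that a change was absent.

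The rule named all members, up to 4 genes of each pathway list with the smallest p in tumoroids against organoids, any list gene that passed between the organoid groups, the genes of the paralogue ratios and the 5 genes most correlated with Apc; other list genes and the marker genes were named after their values were seen. Members and lists were chosen with earlier results of these data known. Genome positions are from Gencode release M21.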

Additional observations from a re-analysis of the deposited data

How the results depend on the processing

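In tumoroids against organoids, library totals gave 7297 genes higher and 2132 lower and limma on log2(TPM + 1) 7675 and 1939, against 4795 and 3370 with TMM; members were 5 higher and 0 lower under both. With the fold threshold 1963 genes were lower, and 0 members passed either way; with summed organoid pairs 1 member was higher. Leaving out a library gave 4151 to 4657 genes higher and 2995 to 3339 lower, and 1 to 3 members higher and 1 to 3 lower. Directions turned for Apc with TPM (0.086), for Gsk3b with library totals (0.23), TPM (0.32) and without a library (-0.37 to 0.020, turned without tumoroid 1), and for Ctnnb1 without a library (-0.030 to 0.27, turned without tumoroid 3). A replicate block gave 5257 higher and 3751 lower; T-cM came from these tumoroids per the study, but no source here ties their numbers to organoid numbers, and r between same-numbered libraries was -0.07 to 0.20, so they were not taken as pairs.

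Between the organoid groups, 816 genes were higher and 818 lower with the block. Voom gave 314 and 267, DESeq2 445 and 349, the newer edgeR form 545 and 503, the fold threshold 109 and 70, TPM 0 and 0 (2690 at an unadjusted p under 0.05), and no replicate block 0 and 0 in edgeR (904 at an unadjusted p under 0.05). Leaving out a pair gave 1 to 1355 higher and 0 to 1517 lower. The 1 member called (Apc) became 0 under all of these but leaving out pair 1, where it was 2 (Apc and Axin1), and also with library totals and filterByExpr. Values near 0 changed sign for Gsk3a with upper-quartile factors (-0.017), library totals (-0.020) and without a pair (-0.039 to 0.031), for Tcf7l2 with filterByExpr (0.000404), TPM (0.011) and without a pair (-0.044 to 0.026), and without a pair for Csnk1a1 (-0.13 to 0.011), Btrc (-0.048 to 0.13) and Gsk3b (-0.053 to 0.12). The Apc2 to Apc ratio turned with a pseudocount of 0.1 (0.14) and without a replicate (-0.29 to 0.25). The cause of these changes was not tested. Depth limits Apc2 alone among the members.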
